A study of Arabidopsis thaliana with 18 samples.

Results

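Transcripts of 6 genes of salicylic acid (SA) synthesis and of the EDS1 and PAD4 defence pathway were followed on 18 Affymetrix ATH1 arrays of Arabidopsis thaliana. The 6 were taken from the 22810 probe sets of the array by a list of identifiers. They were chosen with earlier results of these data known, so setting their calls beside all probe sets is a description and not a test. SAG101 was found by its symbol in the platform's probe table, and the other 5 by probe set, namely 262177_at for ICS1 (AT1G74710), 252921_at for EDS5 (AT4G39030), 250286_at for PBS3 (AT5G13320), 246821_at for CBP60g (AT5G26920) and 252060_at for PAD4 (AT3G52430). Those 5 probe sets are unnamed in the probe table used here, so their gene names rest on that list. RefSeq's TAIR10.1 gene table holds all 6 loci, ICS1 under the symbol EDS16.

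The plants were of accession Mt-0 throughout. On 9 arrays they had received SA at 0.30 mM, dissolved with the surfactant silwet (0.02%) as carrier, and on 9 the 0.02% silwet carrier alone. Serial numbers in the array titles form 3 runs of 3 arrays per treatment, each run with replicates 1, 2 and 3, and these are called sets 1, 2 and 3. The sources used here do not say what sets the runs apart, nor the tissue, plant age or harvest time. They also do not say that replicates came from plants grown separately, so each p-value reflects array-to-array spread that could be technical in part.

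Arabidopsis makes most of its pathogen-induced SA from chorismate. ICS1 converts it to isochorismate in the plastid, EDS5 exports isochorismate to the cytosol, and PBS3 joins it to glutamate, giving a conjugate that breaks down to SA. CBP60g is a calmodulin-binding protein that activates ICS1 and other defence genes. EDS1 pairs with either PAD4 or SAG101, 2 related lipase-like proteins, and these pairs pass on signals from intracellular immune receptors through the helper receptors of the ADR1 and NRG1 families. SA and this pathway are known to reinforce each other.

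All 6 transcripts were higher with SA in set 1, and none passed the test in set 2 or 3. Their differences, SA minus silwet on the log2(signal + 16) scale, had a median of 3.22 in set 1, against -0.11 over all 13647 probe sets tested. The 3 synthesis and transport genes, CBP60g and PAD4 rose between 5.97-fold and 15.2-fold, and SAG101 rose 2.18-fold. All 6 members passed the test in set 1 (limma, Benjamini-Hochberg adjusted p under 0.05 over all probe sets tested), where 6.80% of the probe sets tested were called higher. Every SA array of set 1 lay above every silwet array of that set for all 6, as for 12.3% of probe sets. For each member they also lay above all 15 other arrays, which was so for 8.83% of probe sets. In bulk tissue, more RNA per cell and more cells with the transcript cannot be told apart.

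**Figure D1:**
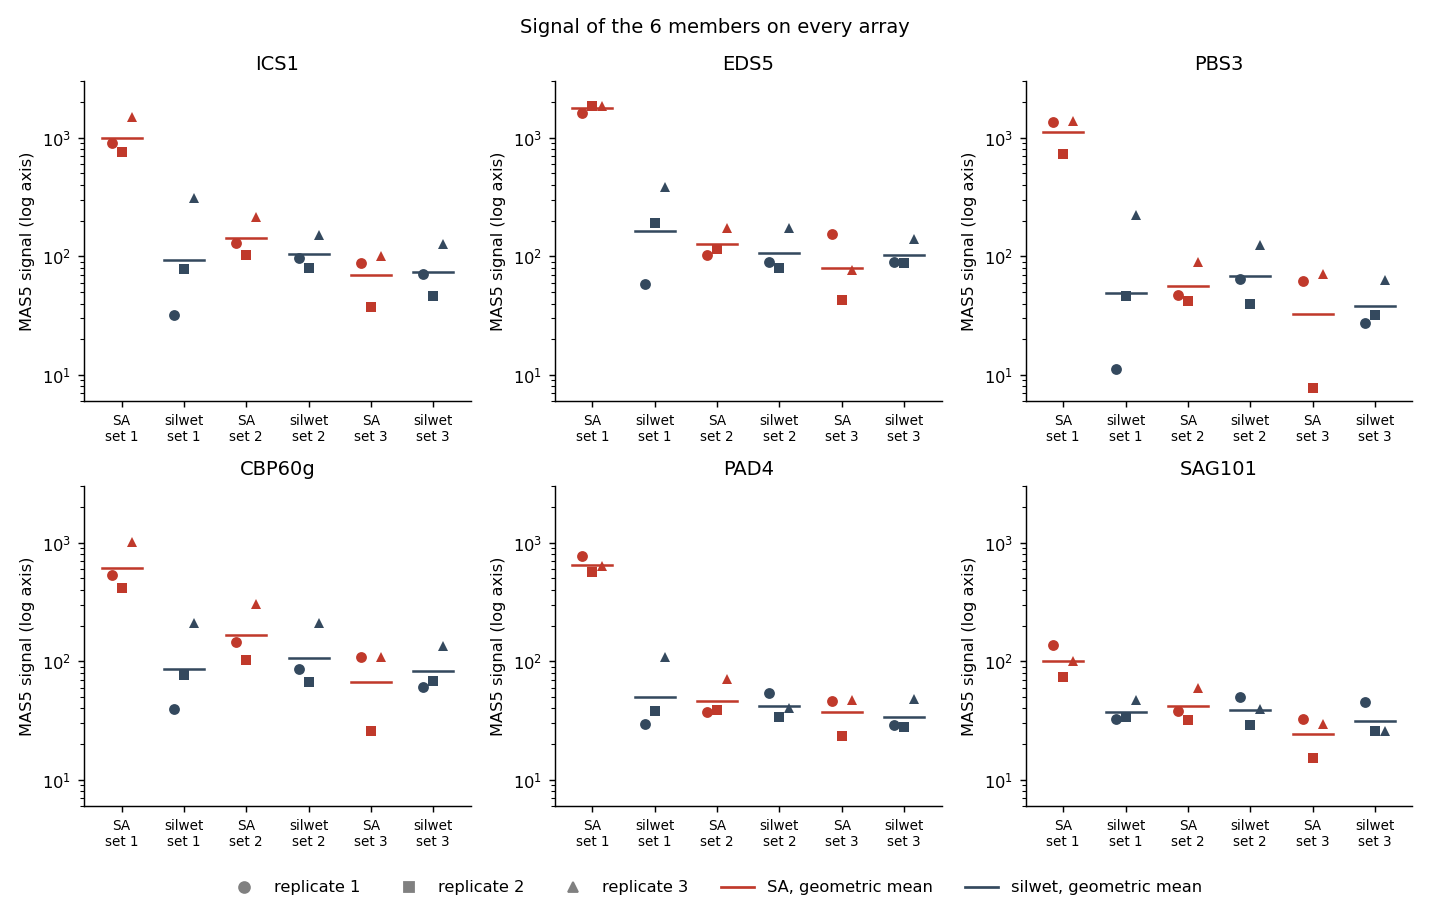
MAS5 signal (log axis) of each member on the 18 arrays, with SA left of silwet in each serial set, point shape for the replicate number and lines for geometric means. The 3 SA arrays of set 1 lie above every other array in all 6 panels, and SAG101 shows the smallest gap.

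ICS1, the first enzyme of the pathway, had signals of 894, 750 and 1498 on the SA arrays of set 1, against 31.96, 78.3 and 313 on the silwet arrays of that set (replicates 1, 2 and 3). The groups did not overlap, although the silwet arrays themselves were spread widely. The difference was 3.16 ± 0.53 on the log2 scale (SE, limma adjusted p = 0.00109), or 8.92-fold. In set 2 the signals were 130, 102 and 216 with SA and 96.8, 79.4 and 152 with silwet, and in set 3 they were 88.1, 37.5 and 100.2 with SA and 70.4, 45.9 and 127 with silwet. In both of these sets the treatments overlapped, as they did for every member. SA arrays lay wholly above silwet arrays for 8.56% of probe sets in set 2 and 2.36% in set 3, and wholly below for 5.42% and 2.70%.

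EDS5, the isochorismate exporter, had 1612, 1858 and 1859 with SA in set 1, against 58.3, 189 and 385 with silwet. The SA arrays were close to each other and at least 4.18-fold above the highest of the other 15 arrays. The difference was 3.29 ± 0.47 (SE, adjusted p = 3.10e-04), or 9.78-fold. In set 2 EDS5 had 103, 115 and 174 with SA and 89.5, 79.1 and 173 with silwet, and in set 3 it had 154, 42.7 and 76.7 with SA and 89.6, 88.1 and 139 with silwet, again with overlap.

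PBS3, the enzyme that joins isochorismate to glutamate, showed the largest difference of the 6. Its signals were 1360, 729 and 1374 with SA in set 1, against 11.3, 46.5 and 221 with silwet. The difference of 3.93 ± 0.62 (SE, adjusted p = 6.54e-04), or 15.2-fold, was the third highest of the 13647 probe sets. With a pseudocount of 64 in place of 16 it was 8.81-fold. In set 2 PBS3 had 47.4, 41.7 and 90.3 with SA and 64.04, 39.6 and 124 with silwet, and in set 3 it had 62.3, 7.81 and 70.7 with SA and 27.2, 31.9 and 63.1 with silwet.

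CBP60g, the activator of ICS1, had 535, 413 and 1019 with SA in set 1, against 39.2, 76.2 and 209.6 with silwet. The difference was 2.58 ± 0.55 (SE, adjusted p = 0.00539), or 5.97-fold. In set 2 it had 145, 103 and 305.2 with SA and 86.2, 67.4 and 212 with silwet. CBP60g was higher with SA in all 3 same-numbered pairs of set 2, by 0.49 to 0.66 on the log2 scale, yet the treatments overlapped and the difference of 0.56 ± 0.55 (SE) did not pass (limma adjusted p = 0.99998). In set 3 it had 108, 26.0 and 109 with SA and 60.9, 67.6 and 135 with silwet.

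PAD4, the EDS1 partner that acts with ADR1 helpers, had 770.0, 571 and 630.3 with SA in set 1, against 29.8, 38.1 and 109 with silwet. It had the smallest adjusted p of the 6, at 8.43e-06, for a difference of 3.30 ± 0.32 (SE), or 9.87-fold. With a pseudocount of 64 that difference was 6.05-fold. In set 2 PAD4 had 37.0, 38.5 and 70.3 with SA and 53.6, 33.6 and 40.7 with silwet, and in set 3 it had 46.0, 23.6 and 46.7 with SA and 29.2, 28.0 and 48.3 with silwet.

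SAG101, the EDS1 partner that acts with NRG1 helpers, changed least. It had 137, 73.3 and 99.7 with SA in set 1, against 32.7, 33.7 and 47.1 with silwet, a difference of 1.12 ± 0.24 (SE, adjusted p = 0.00620). Its lowest SA signal of set 1 was 1.23 times the highest of the other 15 arrays. That margin was 1.35 times for CBP60g and 2.40 to 5.23 times for the other 4 members. In set 2 SAG101 had 37.7, 32.2 and 59.6 with SA and 50.04, 29.0 and 39.7 with silwet, and in set 3 it had 32.6, 15.3 and 29.5 with SA and 45.5, 25.8 and 25.7 with silwet.

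Within set 1, 1 array at a time could be left out without ending any of the 6 calls. Leaving out silwet replicate 1, the lowest of its group, brought ICS1, EDS5 and PBS3 to 5.78-fold, 6.23-fold and 9.25-fold, and leaving out silwet replicate 3, the highest, brought ICS1 and PBS3 to 15.1-fold and 27.2-fold. When a replicate number was left out of all sets, the call of CBP60g ended without replicate 1 (adjusted p = 0.0977), and that of SAG101 without replicate 1 (0.0840) or 3 (0.0632).

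**Figure D2:**
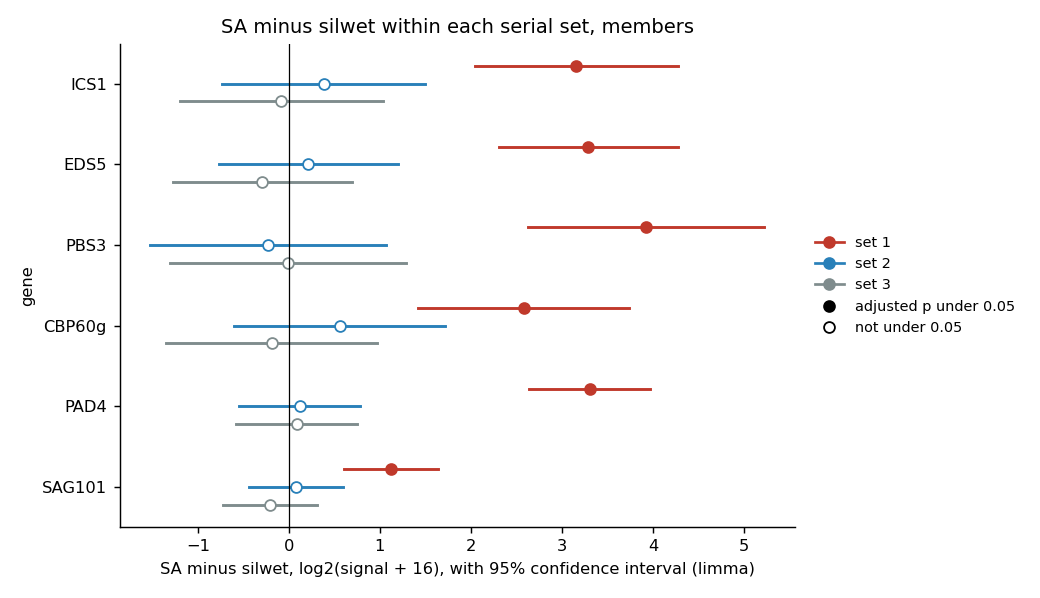
SA minus silwet within each serial set for the 6 members, on the log2(signal + 16) scale, as limma estimates with 95% confidence intervals and filled points where the adjusted p is under 0.05. All 6 estimates of set 1 are filled, and all intervals of sets 2 and 3 include 0.

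In sets 2 and 3 no member was called (limma), and none had an unadjusted p under 0.05, the smallest being 0.325 in set 2 and 0.402 in set 3. Of all probe sets, 0% were called in either set, and 1.71% and 1.37% had an unadjusted p under 0.05. Both shares lie under 0.05, the share awaited without any effect, so p-values of this fit may be too large in these sets. The cause was not tested. The differences ran from -0.23 for PBS3 to 0.56 for CBP60g in set 2, and from -0.29 for EDS5 to 0.09 for PAD4 in set 3. The 95% confidence interval of ICS1 reached from -0.73 to 1.49 in set 2 and from -1.19 to 1.03 in set 3. For PAD4, whose replicates were tighter, the intervals were -0.55 to 0.78 and -0.58 to 0.75. Among same-numbered pairs, SA was above silwet in 18 of 18 comparisons of members in set 1, 14 of 18 in set 2 and 7 of 18 in set 3. In set 2, ICS1 was higher with SA in all 3 pairs, by 0.30 to 0.47, and so was EDS5, by 0.00178 to 0.46. With the arrays treated as pairs, these differences still did not pass, with limma adjusted p of 0.638 for ICS1, 0.861 for EDS5 and 0.525 for CBP60g. The 6 members share arrays, so these comparisons are not independent.

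SA replicate 2 of set 3 stood apart. It had the lowest signal of all 18 arrays for EDS5, PBS3, CBP60g, PAD4 and SAG101, and the lowest median over all probe sets, 27.5, against 29.7 to 37.3 on the others. Without it the set 3 differences of ICS1, EDS5, PBS3 and CBP60g were 0.26, 0.07, 0.59 and 0.33, all turned from below to above 0. PAD4 was then at 0.31 and SAG101 at -0.0147, and still no member was called.

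The difference between sets was tested directly. Earlier results of these data had shown that the SA arrays of set 1 lie apart, and the comparison was chosen with that known. Its p-values are therefore no independent test of that pattern. The SA effect of set 1 exceeded the mean effect of sets 2 and 3 in all 6 members, where 4.90% of probe sets were called in that direction (limma). The excess was 4.04 ± 0.75 for PBS3 (SE, adjusted p = 0.00415), 3.33 ± 0.57 for EDS5 (0.00255), 3.20 ± 0.39 for PAD4 (1.75e-04) and 3.01 ± 0.65 for ICS1 (0.00997). It was 2.40 ± 0.67 for CBP60g (0.0369) and 1.19 ± 0.30 for SAG101 (0.0211), and these 2 were less secure. For CBP60g, 8 single arrays ended the call when omitted, with adjusted p between 0.0590 and 0.121. In set 1 these were replicates 1 and 3 of SA and replicates 1 and 2 of silwet, in set 2 replicates 1 and 2 of SA and replicate 3 of silwet, and in set 3 replicate 3 of silwet. It ended also with every probe set tested (0.0585). The SAG101 call ended without replicate 1 or 3 of SA or replicate 1 or 2 of silwet in set 1 (0.0535 to 0.0699). With 1 replicate number left out of all sets, 2 members were called without replicate 1, namely EDS5 and PAD4, PAD4 alone without replicate 2, and all but SAG101 without replicate 3. The SAG101 call thus ended under each of the 3 (adjusted p 0.218, 0.103 and 0.0897). Without silwet replicate 1 of set 1 the excess of ICS1, EDS5 and PBS3 was 5.21-fold, 6.41-fold and 10.02-fold, and without silwet replicate 3 of set 1 that of ICS1 and PBS3 was 13.6-fold and 29.5-fold, against 8.04-fold, 10.06-fold and 16.5-fold for ICS1, EDS5 and PBS3 with all arrays. The excess of PBS3 was 25.7-fold with a pseudocount of 1, 9.14-fold with 64 and 9.68-fold with array weights, and that of PAD4 was 2.54 on the log2 scale with a pseudocount of 64. Without replicate number 1 or 3 in all sets, the excess of PBS3 was 10.3-fold or 26.4-fold.

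The levels with SA differed between sets for all 6 members (F test within limma, adjusted p from 6.90e-07 for PAD4 to 0.00240 for CBP60g), as they did for 28.9% of probe sets. SA arrays of set 1 were above those of set 2 by 1.005 for SAG101 to 3.95 for PBS3, and all 6 passed, where 12.5% of probe sets were called higher. Between sets 2 and 3 no member passed with SA (limma), and none had an unadjusted p under 0.05, which 4.31% of probe sets did, and 0% were called. The smallest was 0.0567 for SAG101. The differences, SA set 2 minus SA set 3, ran from 0.23 for PAD4 to 1.08 for CBP60g, and they leaned on SA replicate 2 of set 3. Without that array PBS3 was at -0.18, PAD4 at 0.0138, and the other 4 between 0.19 for EDS5 and 0.56 for CBP60g. With silwet alone no member passed the test between sets (adjusted p from 0.927 to 0.970, with 0.799% of probe sets called, and unadjusted p of 0.367 or more).

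In the order of levels, SA set 1 came first for every member. Below it, neighbours among the other 5 groups lay at most 0.56 apart for CBP60g, 0.42 for PBS3 and 0.38 for ICS1. The largest such gap was 0.35 for EDS5, 0.21 for SAG101 and 0.12 for PAD4. From highest to lowest those 5 groups spanned 1.08 for CBP60g, 0.91 for EDS5 and 0.88 for ICS1. The span was 0.65 for PBS3, 0.50 for SAG101 and 0.43 for PAD4. Sorting by level narrows the gaps and widens the span, so the SE of a single difference cannot judge either. SA set 3 was the lowest group for every member except PAD4, in which silwet set 3 was lowest. Without SA replicate 2 of set 3, silwet set 3 was the lowest group for every member except SAG101.

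Averaged over the 3 sets, PAD4 was called higher with SA, at 1.17 ± 0.18 (SE, limma adjusted p = 0.0116), where 0.242% of probe sets were called higher. ICS1, EDS5, PBS3 and CBP60g reached 1.15, 1.07, 1.23 and 0.98 without passing (adjusted p 0.184, 0.147, 0.256 and 0.337), and SAG101 reached 0.33 (0.565). All 6 had an unadjusted p under 0.05, as did 7.55% of probe sets. When arrays sharing a replicate number within a set were treated as pairs, 5 of the 6 were called, as ICS1, EDS5, PBS3 and CBP60g then had adjusted p of 0.00520, 0.0197, 0.0350 and 0.00939. A fit with treatment as its only term called no member, PAD4 having a limma adjusted p of 0.9997. It left out the serial sets altogether, so differences of the SA effect between sets counted there as spread. With the replicate number alone as a block, 4 were called, all but EDS5 and SAG101. Without silwet replicate 3 of set 1, 4 were called, as ICS1, EDS5 and PBS3 joined PAD4 (adjusted p 0.00799, 0.0180 and 0.0210). The PAD4 call ended when replicate number 1 (adjusted p = 0.311) or 2 (0.252) was left out of all sets, and with a pseudocount of 1 (0.0992).

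The synthesis genes and CBP60g also varied with the replicate number, in both treatments. Replicate 3 had the highest signal of its 3 arrays in 6 of 6 groups for ICS1, PBS3 and CBP60g, in 5 of 6 for EDS5, in 4 for PAD4 and in 2 for SAG101. Over all probe sets, 2.34% were highest in replicate 3 in all 6 groups and 6.70% in 5 or 6. In a fit with terms for the 6 groups and the replicate number, a comparison added after these values had been seen, replicate 3 exceeded the mean of replicates 1 and 2 by 1.16 ± 0.18 for CBP60g (SE, limma adjusted p = 0.00232), by 1.05 ± 0.21 for ICS1 (0.0111) and by 1.11 ± 0.27 for PBS3 (0.0312). These 3 were called, against 2.89% of probe sets called higher in replicate 3. EDS5 was at 0.63 ± 0.26 (0.168), PAD4 at 0.46 ± 0.16 (0.104) and SAG101 at 0.15 ± 0.12 (0.502). The PBS3 call ended when any of 6 arrays was omitted (adjusted p between 0.0528 and 0.118), namely replicate 3 of SA in sets 2 and 3, replicate 3 of silwet in all 3 sets and replicate 2 of silwet in set 2. It ended too with a pseudocount of 1 (0.0536) and with every probe set tested (0.0507). EDS5 was called without SA replicate 1 of set 3 (adjusted p = 0.0251), and with array weights EDS5 (0.00791) and PAD4 (0.0449) were called.

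**Figure D3:**
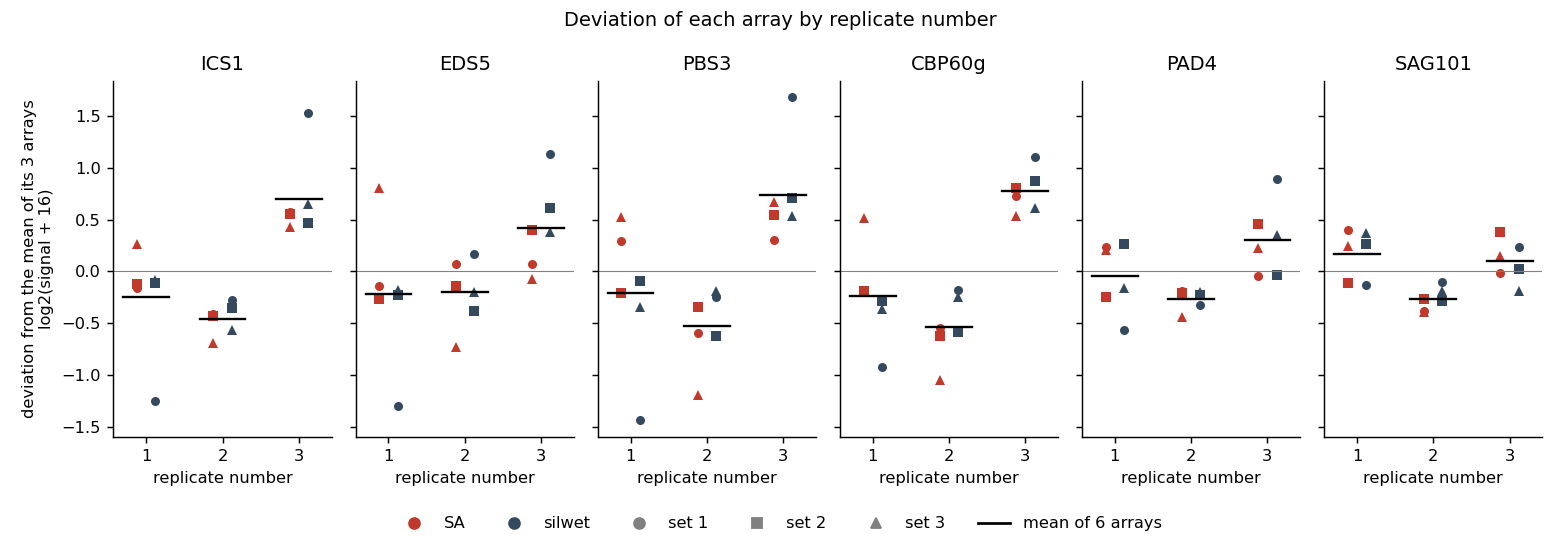
Deviation of each array from the mean of its 3 arrays, on the log2(signal + 16) scale, by replicate number, with SA in red left of silwet in dark blue, point shape for the serial set and a line for the mean of 6 arrays. Replicate 3 lies above 0 on all 6 arrays for ICS1, PBS3 and CBP60g, with mean deviations of 0.70, 0.74 and 0.77, and in these 3 genes its highest point is the silwet array of set 1.

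Silwet set 1 held the widest spread of the 6 groups for every member except SAG101. There replicate 1 lay below the group's mean for all 6 members and replicate 3 above it for all 6, with median deviations of -1.09 and 1.12. In the same-numbered pairs of set 1, ICS1 was higher with SA by 4.25, 3.02 and 2.20 in replicates 1, 2 and 3, PBS3 by 5.65, 3.58 and 2.55, and PAD4 by 4.0996, 3.44 and 2.37. The largest differences stood where the silwet signal was lowest, which follows in part from that signal being subtracted. The SE of a difference within a set was larger for PBS3, CBP60g, ICS1 and EDS5 than for 99.6%, 99.2%, 99.0% and 98.1% of the probe sets tested, and for PAD4 and SAG101 larger than for 87.4% and 66.1%.

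Likeness between members was measured as the root mean square difference of their log2 values over the 18 arrays, each centred on its own mean. ICS1 and CBP60g were closest, at 0.38, and PBS3 and SAG101 farthest apart, at 1.24. Every member was lower on the 15 other arrays than on the SA arrays of set 1. Among those 15, ICS1 was again closest to CBP60g (0.28), followed by PBS3 (0.31), and PAD4 to SAG101 (0.32). Genes that vary little lie close by this measure even if they do not vary together. PAD4 and SAG101 had the smallest SD within groups, 0.43 and 0.32 on the log2 scale, against 0.66 to 0.89 for the other members. These values are descriptions without a test, and the points share their arrays.

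By the same measure, over 7351 tested probe sets with exactly 1 gene, the gene closest to ICS1 was the glycosyltransferase UGT73D1 (0.35), followed by AT1G51890 (0.37) and AT1G10340 (0.43). Closest to EDS5 and to PAD4 was Hsp70-2, a cytosolic chaperone (0.29 and 0.30), followed for EDS5 by AT1G43910 (0.39) and AT1G66090 (0.41) and for PAD4 by AT5G22530 (0.32) and AT3G21080 (0.33). PBS3 lay closest to AT3G21080 (0.49), AT1G66090 (0.54) and Hsp70-2 (0.56). CBP60g was closest to AT4G39830 (0.28), AT1G51890 (0.39) and UGT73D1 (0.41), and SAG101 to AT1G22180 (0.15), AT1G75170 (0.19) and EPC1 (0.21). SAG101 varied little over the arrays, with a root mean square of 0.54 around its own mean, against 1.16 to 1.69 for the other 5 members.

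Of the wider pathway, the lists of 64 genes held 6 members and 11 further genes that the probe table names, 9 of which were tested. These lists were also chosen with earlier results of these data known. UGT74F1 and UGT71C3 lay below the filter on low signal. NRG1C and NPR2 passed that filter only through the SA arrays of set 1, where they were high, and are described apart from the count. Of the 7 genes that also passed it over the other 15 arrays, 3 rose in set 1 (EDS1B, UGT76B1 and SARD4) and none fell, against 6.80% of all probe sets tested called higher. In the EDS1 branch, EDS1B, the close copy of EDS1, had 129, 149 and 201 with SA in set 1 (replicates 1, 2 and 3), against 48.3, 45.7 and 96.9 with silwet, a difference of 1.18 ± 0.33 (SE, limma adjusted p = 0.0242). Probes for EDS1B may also bind EDS1 transcripts, and that part was not tested. NRG1C, a truncated relative of the NRG1 helper receptors, had 136, 47.4 and 92.7 with SA, against 8.42, 16.4 and 22.7 with silwet, a difference of 1.70 ± 0.25 (adjusted p = 4.62e-04). By mean level over the 15 arrays other than SA of set 1, NRG1C ranked at 64.8% from the top, outside the upper 60%, so its call depends on the filter having included the group where it was high. Omitting either replicate 1 or replicate 3 of SA in set 1 took it out of the test. With every probe set tested, a fit that uses no filter, its adjusted p in set 1 was 8.97e-04.

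In SA perception, the receptor relative NPR2 had 69.5, 62.1 and 61.9 with SA in set 1, against 12.4, 15.7 and 18.7 with silwet. The difference was 1.35 ± 0.16 (SE, limma adjusted p = 6.29e-05), and the groups did not overlap. NPR2 ranked at 61.5% over the other 15 arrays and so carries the same limit as NRG1C. Its adjusted p with every probe set tested was 1.29e-04. SARD4, a reductase in the synthesis of pipecolic acid, an immune signal made alongside SA, had 1311, 1093 and 1047 with SA, against 184, 222 and 289.8 with silwet. Its difference was 2.25 ± 0.22 (adjusted p = 9.13e-06). UGT76B1, a glucosyltransferase that conjugates SA, was higher with SA by 3.58 ± 0.51 (adjusted p = 3.15e-04). The folds of the low-signal genes depended on the pseudocount: with 64 in place of 16, NRG1C was at 0.93 and NPR2 at 0.69, and with 1 they were at 2.44 and 1.998. Without silwet replicate 1 of set 1, UGT76B1 was at 2.91.

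Genes that did not pass in set 1 were EDS5H, the homologue of EDS5, at -0.30 ± 0.25 (SE, limma adjusted p = 0.477), the ethylene transcription factor EIN3, which represses ICS1, at 0.14 ± 0.35 (0.843), the SA methyltransferase BSMT1 at -0.04 ± 0.55 (0.974) and WES1, an enzyme that conjugates auxin, at 0.28 ± 0.32 (0.624). In sets 2 and 3 none of the 9 genes was called. There EDS1B was at 0.05 and -0.66, NRG1C at -0.26 and 0.01, NPR2 at -0.22 and 0.27, SARD4 at -0.18 and -0.42, and UGT76B1 at -0.07 and 0.50. The excess of set 1 over the mean of sets 2 and 3 was called for EDS1B (1.48, adjusted p = 0.0297), SARD4 (2.55, 5.22e-05) and UGT76B1 (3.37, 0.00403), 3 of the 7 genes, against 4.90% of all probe sets tested. For NRG1C and NPR2, under the limit above, it was 1.82 (0.00242) and 1.33 (8.37e-04), and 0.00434 and 0.00170 were the adjusted p with every probe set tested. With a pseudocount of 64 this excess was 0.97 for NRG1C and 0.68 for NPR2, with 1 it was 2.72 and 1.95, and without silwet replicate 1 of set 1 it was 2.69 for UGT76B1. The set 1 call of EDS1B ended without SA replicate 3 (0.108), silwet replicate 1 (0.0895) or silwet replicate 2 (0.107) of that set. Its excess call ended without any of those 3 arrays, SA replicate 1 or 2 of set 2, or silwet replicate 1 of set 2 (adjusted p from 0.0513 to 0.0971). With a replicate number left out of all sets, the set 1 call of EDS1B ended without any of the 3 (0.0546 to 0.148), and its excess call without replicate 1 (0.155) or 2 (0.242). The excess call of NRG1C ended without replicate 1 (0.0799), that of UGT76B1 without replicate 1 (0.0622) or 2 (0.0695), and that of NPR2 without replicate 2 (0.0599).

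**Figure D4:**
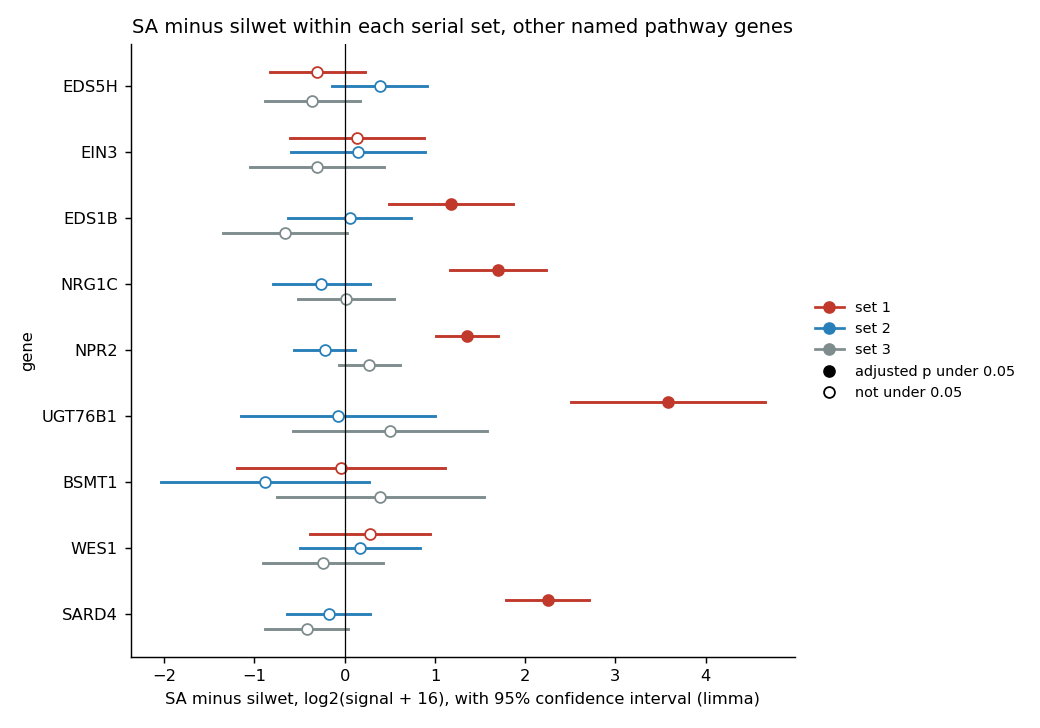
SA minus silwet within each serial set for the 9 other tested genes of the pathway lists, on the log2(signal + 16) scale, as limma estimates with 95% confidence intervals and filled points where the adjusted p is under 0.05. The filled points are EDS1B, NRG1C, NPR2, UGT76B1 and SARD4 in set 1, and all intervals of sets 2 and 3 include 0.

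Leaf markers were present on all arrays, RCA at 1612 to 4329, LHCB4.1 at 2613 to 6829 and LHCB4.2 at 743 to 1978, with 3 of 5 listed leaf markers named in the probe table. None of the 3 was called in set 1. Their summed signal was 4968 to 7454 on the SA arrays of set 1, against 6065 to 9074 on its silwet arrays. The root marker PYK10, 1 of 3 listed, was at 32.4 to 228, and no listed seed or flower marker was named, so those tissues were not assessed. The log2 ratio of 3′ to 5′ ubiquitin control signal, a measure of RNA integrity, was 0.706 to 1.12 on the SA arrays of set 1 and 1.15 to 1.81 on the other 15, while those of actin and GAPDH overlapped. The part of these differences in the results of set 1 was not tested.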

How the data were processed

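RNA of 18 Arabidopsis samples was hybridised to 1 ATH1 array each. The deposited values are MAS5 signal intensity per probe set on a linear scale, per the submitters' processing notes, and the files give a mean of 100.01 on every array after a 2% trim at each end. Background and summarisation were thus done by the authors, and no MAS5 version or genome build is given in the sources used here.

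Signals were taken as log2(signal + 16), and the upper 60% of 22746 Arabidopsis probe sets by mean over all arrays (13647) were tested in limma 3.58.1 (R 4.3.3). The model had 6 groups of 3 arrays, 12 residual degrees of freedom and a mean-variance trend. It had no term for the replicate number or for pairs, so its p-values and intervals make no use of pairing. P-values were adjusted by Benjamini-Hochberg over all 13647 at a threshold of 0.05. All 6 members passed the filter, also over the 15 arrays other than SA of set 1. The code was tested on simulated data. Tables and figures used Python 3.11.15, pandas 2.3.3, numpy 2.4.6 and matplotlib 3.10.9.

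The probe table gave 1 gene for 13513 probe sets, several for 503 and none for 8730. No member's signal was read as more or less transcript than another's, and the number of arrays limits the precision. Members, lists and the comparisons by serial set were chosen with earlier results of these data known. All members were named in every comparison, with up to 4 genes per list by smallest adjusted p in set 1 and the 3 nearest genes per member. SA and silwet arrays that share a replicate number within a set, by their titles, deviated together from their group means. Their r ran from 0.129 to 0.770 in 9 of 9 pairs. Arrays of different numbers gave r from -0.611 to 0.280, so the ranges overlapped. Within its set, though, every SA array had its highest r with the silwet array of the same number. Deviations within a group cancel out, so r of same and of different numbers are not independent. The numbers were taken to pair the samples in an alternative fit, while the main fit left the pairs out. Alternatives were the pseudocount, filter, scaling, trend, array weights, blocks, the set term and leaving out arrays or replicate numbers.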

Additional observations from a re-analysis of the deposited data

Results flagged for a closer look

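The effect of SA differed between serial sets for all 6 members, by the test of set 1 against the mean of sets 2 and 3 within the same fit. That comparison was chosen with earlier results of these data known, in which the SA arrays of set 1 lay apart. The log2 excess of set 1 was 3.01 for ICS1, 3.33 for EDS5, 4.04 for PBS3, 2.40 for CBP60g, 3.20 for PAD4 and 1.19 for SAG101 (limma adjusted p from 1.75e-04 to 0.0369). The labels do not say what distinguishes the sets, so the serial set and whatever else differed between them cannot be told apart.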

How the results depend on the processing

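With 3 arrays a group, set 1 gave 6 called members, 6 with any single array left out and 4 to 6 with a replicate number left out, and sets 2 and 3 gave 0 throughout. For the mean of the 3 sets, 1 member was called, against 0 with a pseudocount of 1, 3 with 64 and 4 with array weights. The number was 4 with the replicate block, 5 with the replicate block of 9 pairs and 0 with treatment as the only term. It was 1 to 4 with a single array left out and 0 to 1 with a replicate number left out. The excess of set 1 was called for 6 members, for 4 to 6 with a single array left out and for 1 to 5 with a replicate number left out. The replicate 3 comparison called 3, against 5 with array weights and 2 to 4 with a single array left out. The block ended no call of a member.

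Small differences of set 3 changed sign. PBS3 was at 0.0455 with a pseudocount of 64 and at 0.0488 with 75th percentile scaling, and array weights gave 0.35 for ICS1, 0.47 for PBS3, 0.19 for CBP60g and 0.0549 for SAG101. With a single array or a replicate number left out, set 3 ran from -0.36 to 0.26 for ICS1, -0.78 to 0.0727 for EDS5, -0.44 to 0.59 for PBS3, -0.63 to 0.33 for CBP60g and -0.10 to 0.31 for PAD4. Set 2 ran from -0.53 to 0.13 for PBS3, -0.13 to 0.37 for PAD4 and -0.11 to 0.27 for SAG101. In set 1, EIN3 ran from -0.0242 to 0.28, WES1 from -0.0320 to 0.52 and BSMT1 from -0.32 to 0.0553, the last over only 11 of 18 single arrays and 1 of 3 replicate numbers, since it fell below the filter in the others. The cause of these changes was not tested.

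Over all probe sets, set 1 called 1753, against 2879 with array weights, 3814 with pairs and 439 to 2133 with a single array or a replicate number left out. The excess of set 1 called 1084, against 2681, 2988 and 123 to 1322, and 1708 with the replicate block. The mean of the sets called 35, against 0 to 264. The silwet sets differed at 109, against 812 with array weights, 214 with the replicate block and 23 to 141 with a single array or a replicate number left out. The SA sets differed at 3945, against 5946 and 1653 to 4435, and replicate 3 at 688, against 2858 and 201 to 1056. SAG101, NRG1C, NPR2, WES1 and BSMT1 were not tested when the upper 40% of probe sets were kept, BSMT1 also not with a pseudocount of 1, and NRG1C not in 2 of 18 settings with a single array left out.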
